A study of Mus musculus with 8 samples.

Results

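The 10 genes described here, Atf4, Atf5, Ddit3, Trib3, Asns, Chac1, Psat1, Phgdh, Sesn2 and Bbc3, belong to the integrated stress response of the cell and to the amino acid synthesis that it controls. They were chosen by name, and each of the 10 symbols matched 1 of the 49671 gene identifiers in the table of liver read counts. The table holds 8 libraries of total RNA from the livers of C57BL/6 mice (C57BL/6N in the methods of the study) taken after weaning, with 2 WT and 2 NT-KO animals of each sex. NT-KO mice were homozygous for a CRISPR/Cas9 deletion in Lbr, the gene of the lamin B receptor of the inner nuclear membrane, that removes its canonical start codon and part of the intron before it. The WT mice carried no deletion, and neither genotype received a treatment. All NT-KO animals descend from 1 male founder that was backcrossed to C57BL/6N females, and the sequencing labels do not say whether the livers of a group came from different litters or days. The comparison of interest was NT-KO vs WT in each sex.

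When a cell lacks amino acids or heme, or holds misfolded protein or viral RNA, kinases phosphorylate the translation factor eIF2α. Most translation then falls, while the Atf4 and Atf5 mRNAs are translated better because of short reading frames ahead of their coding sequence, so that the level of these mRNAs does not report the amount of protein. ATF4 pairs with C/EBP and other bZIP factors and raises the genes of amino acid uptake and synthesis, of tRNA charging and, when stress lasts, of cell death. In liver this pathway is best known from responses to dietary amino acid restriction, fasting and ER stress.

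ATF4 binds DNA at the C/EBP-ATF response element, written here as TGATGNAA and searched on both strands of the 300 bases from 250 before to 50 after each RefSeq start (GRCm38.p6). All 10 genes had such a window (14 windows in all), and 3 of the 10 held the motif, against 4.51% of 27025 genes and 3.97% of 32851 windows. The 10 genes were chosen as genes of this response, so their share is not independent of the choice. The 3 sites are shown because Asns, Chac1 and Trib3 are also the genes whose levels varied most from library to library. Psat1, next at 5.27-fold, held no match, and the part of the motif in this spread was not tested. Capitals mark the motif, or its reverse complement where it lies on the opposite strand, and each line reads 5′ to 3′ on the strand of the gene.
Asns: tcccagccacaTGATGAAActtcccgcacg
Chac1: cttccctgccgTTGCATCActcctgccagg
Trib3: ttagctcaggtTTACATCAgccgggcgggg
The Asns site (chr6:7693214-7693243, minus strand) has its motif 16 to 23 bases before the start, the Chac1 site (chr2:119351038-119351067, plus strand) 186 to 193 bases before the start, and the Trib3 site (chr2:152344028-152344057, minus strand) 14 to 21 bases after the start. A match is a description of these letters and no proof of binding, and a gene without a match may hold the element outside the window. The E-box CACGTG, the palindromic motif bound by clock and MYC factors, was found in 1 of the 10 genes, Bbc3, against 8.09% of all genes. It lies 59 to 64 bases before a start of Bbc3 (chr7:16310356-16310383, plus strand), and is shown because Bbc3 was the gene nearest to a call between genotypes.
Bbc3: cggggcgggcgCACGTGgcggcgtcgag

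The counts of a library summed to between 45020377 and 64396291, so that 1 count was worth 0.0155 to 0.0222 CPM, a count scaled to the size of its library, and 3 counts, the most that a count of 0 allows, were worth 0.0466 to 0.0666 CPM. These limits cover counting error only. Lbr reads, which can come from outside the deleted part, stood at 7.99 and 6.54 CPM in WT males, 12.8 and 13.6 in NT-KO males, 7.43 and 6.96 in WT females and 13.1 and 14.0 in NT-KO females, so the NT-KO libraries lay above the WT libraries in both sexes. As a check of the tissue, the summed level of 6 hepatocyte marker genes lay between 76542 and 109326 CPM in every library. The summed level of 8 genes of ER folding and ER stress, Xbp1 and Edem1 among them, set 1 library apart. It was 5818 CPM in male WT replicate 2 and 2592 in male WT replicate 1, against 1395 to 1784 in the other 6 libraries. The summed levels of 5 blood markers were 947 and 445 CPM in WT males, 372 and 370 in NT-KO males and 170 to 320 in the female libraries. Those of 7 lymphocyte markers lay between 3.92 and 21.4 CPM except in male NT-KO replicate 2, at 51.1, where the immunoglobulin gene Ighm alone reached 48.1. In bulk liver RNA, fewer cells of a type and less RNA per cell cannot be told apart.

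Per kilobase of exon, the 10 genes spanned a wide range of levels. Atf5 (mean over the 8 libraries 55.9 CPM per kb) and Atf4 (38.9) were far above the rest, followed by Ddit3 (6.50). Bbc3 (2.33), Sesn2 (2.24), Trib3 (1.87) and Chac1 (1.87) formed a middle group whose group means overlapped, from 0.957 to 3.04 CPM per kb. The enzymes of amino acid synthesis were lowest, with Asns at 0.495, Psat1 at 0.191 and Phgdh at 0.0930 CPM per kb. The group means of Psat1 (0.100 to 0.264) overlapped with those of both Asns (0.102 to 0.857) and Phgdh (0.0783 to 0.119), so the order within these enzymes was not beyond the spread.

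The genes also differed in how far their own level moved between libraries. The highest library stood 1.48-fold above the lowest for Atf4 and 2.20-fold for Atf5, the genes whose protein is controlled mainly by translation. Asns spanned 32.4-fold, Chac1 6.82-fold and Trib3 6.38-fold, and the remaining members 2.46-fold to 5.27-fold. No library was high in most members: male NT-KO replicate 1 was highest for 3 of the 10 genes and male WT replicate 1 lowest for 4 of them.

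**Figure D1:**
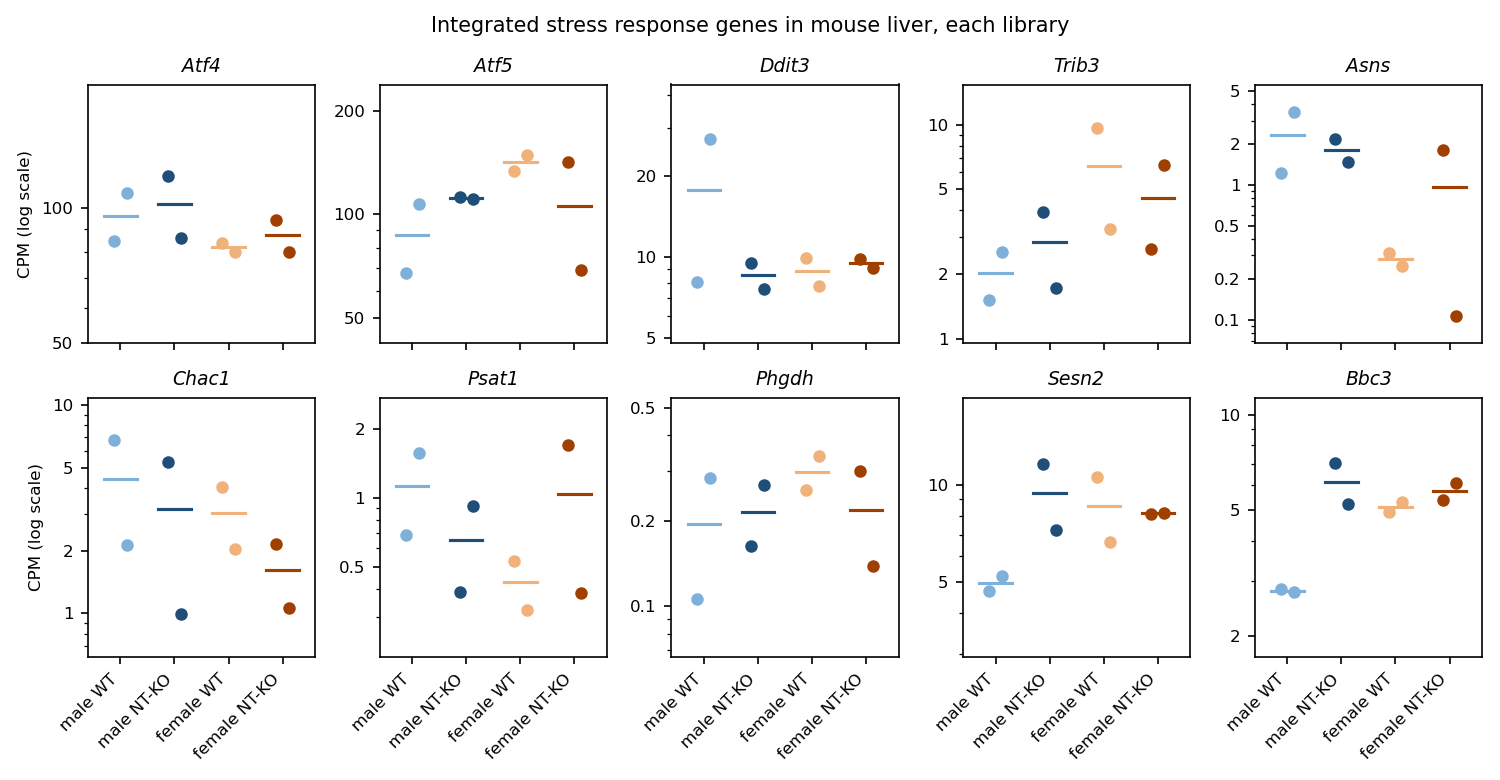
Level of each of the 10 genes in each of the 8 libraries, as CPM on a log scale, by group on the horizontal axis. Points are libraries and horizontal bars are group means of 2 libraries. Bbc3 and Sesn2 are lowest in both male WT libraries, Ddit3 is high in 1 male WT library, at 27.3 CPM, and Asns and Psat1 are high in 1 of the 2 female NT-KO libraries.

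Levels were compared between groups with edgeR's quasi-likelihood F-test on 13117 genes that reached 1 CPM in at least 2 libraries, with the Benjamini-Hochberg false discovery rate (FDR) taken over all of them. A gene was called a DEG at an FDR of at most 0.05 with an absolute log2 fold change over 1. Of the 10 genes 9 were tested and 0 were called in either sex. In males 2 of the 9 had an unadjusted p under 0.05, both higher in NT-KO, and 5 were higher and 4 lower than in WT whatever their p. In females 0 of the 9 had an unadjusted p under 0.05, and again 5 were higher and 4 lower. The median log2 fold change was 0.09 in each sex, against 0.0121 over all tested genes in males and 0.0012 in females.

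These counts are read against the rest of the table. The test called 0.0152% of all genes in males and 0.00762% in females, so almost no gene passed it. An unadjusted p under 0.05 with a higher level in NT-KO was reached by 6.03% of genes in males and 0.869% in females, and with a lower level by 5.50% and 0.679%. With edgeR's likelihood ratio test, the test that belongs to the glmFit function named in the methods of the study, 1.56% of genes were called in males and 0.0839% in females. That test called 1 of the 9 genes in males, Bbc3, and 0 in females. With 2 libraries a group, the smallest two-sided p of an exact permutation test of 1 gene is 0.333. Every p here is therefore from a model in which the genes share an estimate of the spread, and it measures the spread between these libraries only.

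**Figure D2:**
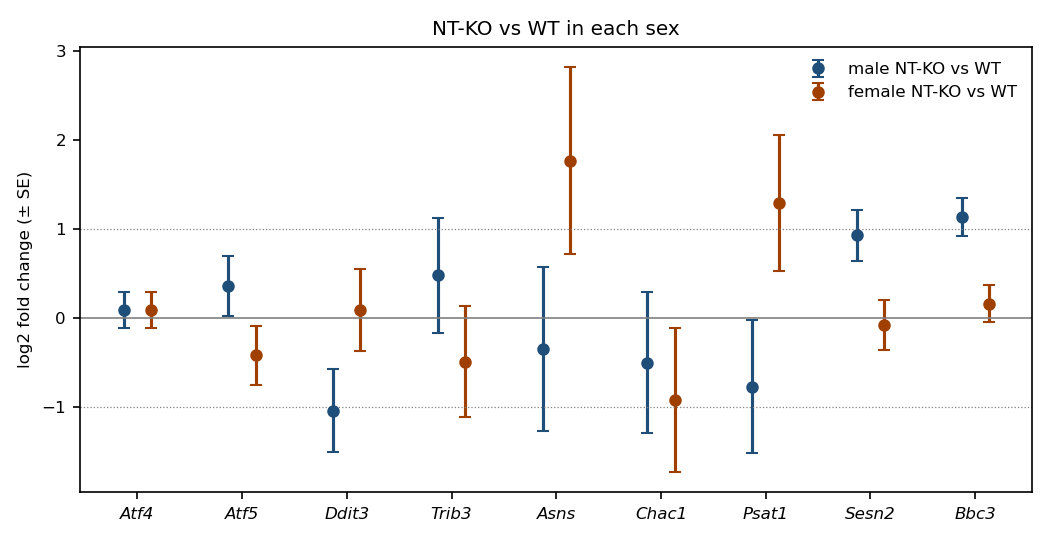
Log2 fold change of NT-KO against WT (vertical axis) for the 9 tested genes, in males and in females, from the quasi-likelihood fit to all 8 libraries. Points are estimates, bars are 1 standard error on each side, and dotted lines mark a log2 fold change of 1 in either direction. Bars that do not reach 0 are those of Atf5, Ddit3, Psat1, Sesn2 and Bbc3 in males and of Atf5, Asns, Chac1 and Psat1 in females. A bar of 1 standard error that misses 0 is not a call. The bars of Asns, Chac1 and Psat1 are wide in both sexes.

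The transcription factors came first in the pathway. Atf4, the central activator (chr15:80255184-80257541), was measured at 84.6 and 108 CPM in WT males, 118 and 86.1 in NT-KO males, 83.8 and 80.1 in WT females and 94.0 and 80.0 in NT-KO females. The genotypes overlapped in both sexes, and the log2 fold change was 0.09 ± 0.207 (SE) in each. Its levels were the steadiest of the 10 genes.

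Atf5, a bZIP factor linked to mitochondrial protein stress (chr7:44812256-44816658), stood at 67.5 and 107 CPM in WT males and 112 and 111 in NT-KO males. In the female livers it stood at 134 and 149 CPM in WT and 142 and 69.1 in NT-KO. Both male NT-KO libraries were above both male WT libraries, which 19.6% of all tested genes also showed, and the female genotypes overlapped. The log2 fold changes of 0.36 ± 0.335 in males (quasi-likelihood FDR 0.733) and -0.42 ± 0.335 in females (FDR 1.00) were about the size of their errors. Of its 50-base stretches 1.81% are shared with Il4i1 and Nup62, which overlap it on the opposite strand, and whether the counting used strand is not given in the sources used here.

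Ddit3 encodes CHOP, the bZIP factor that ties lasting stress to cell death (chr10:127290774-127296288). Its level was 8.03 and 27.3 CPM in WT males, 9.48 and 7.62 in NT-KO males, 9.93 and 7.80 in WT females and 9.78 and 9.11 in NT-KO females. A single library, male WT replicate 2, stood 3.39-fold above its own replicate, while the other 7 libraries lay between 7.62 and 9.93 CPM. The male log2 fold change was -1.04 ± 0.469 (quasi-likelihood FDR 0.447) and became 0.09 without that library. Male WT replicate 2 was also the library with the highest ER chaperones, Hspa5 (the ER chaperone BiP) being at 2590 CPM there against 336 to 898 in the others, and the part of this in the level of Ddit3 was not tested. In females the log2 fold change was 0.09 ± 0.464. Of its 50-base stretches 4.38% are shared with Mars or with a second gene entry of the same name.

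Trib3 encodes a pseudokinase that restrains ATF4 and CHOP as part of a feedback (chr2:152337422-152344032). It was at 1.52 and 2.55 CPM in WT males, 3.93 and 1.73 in NT-KO males, 9.68 and 3.25 in WT females and 2.63 and 6.51 in NT-KO females. The genotypes overlapped in both sexes, and replicates of a group stood 1.68-fold to 2.98-fold apart. The log2 fold changes were 0.48 ± 0.649 in males and -0.49 ± 0.622 in females, both smaller than their errors.

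Chac1 encodes an enzyme that breaks down glutathione (chr2:119351229-119354381). Its 2 male WT libraries stood at 6.76 and 2.12 CPM and its male NT-KO libraries at 5.35 and 0.991. In females the values were 4.04 and 2.03 CPM in WT and 2.16 and 1.06 in NT-KO. Replicates of a group stood 1.99-fold to 5.40-fold apart, so the spread within groups was larger than the differences between genotypes. The log2 fold changes were -0.50 ± 0.795 in males and -0.92 ± 0.813 in females. In every group replicate 1 was above replicate 2, and each NT-KO library was below the WT library of the same number and sex. The labels do not say whether these numbers pair the libraries.

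Asns makes asparagine from aspartate and glutamine and is a classic ATF4 target (chr6:7675169-7693254). It was at 1.22 and 3.47 CPM in WT males, 2.18 and 1.47 in NT-KO males, 0.311 and 0.250 in WT females and 1.83 and 0.107 in NT-KO females. Female NT-KO replicate 1 stood at the level of the male libraries, 17.1-fold above its own replicate, and the other 3 female libraries were lower than every male library. The lowest values rested on few reads, 17 in each female WT library and 7 in female NT-KO replicate 2, against 104 in female NT-KO replicate 1. The female log2 fold change of 1.77 ± 1.05 (quasi-likelihood FDR 1.00) turned to -1.36 without female NT-KO replicate 1, and the male one was -0.35 ± 0.921.

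Psat1 and Phgdh act in the pathway that makes serine from a glycolytic intermediate. Psat1, the aminotransferase (chr19:15904678-15947337), was at 0.688 and 1.56 CPM in WT males, 0.387 and 0.915 in NT-KO males, 0.530 and 0.323 in WT females and 1.70 and 0.382 in NT-KO females. It was high in the same female NT-KO library as Asns. The female log2 fold change of 1.29 ± 0.763 (quasi-likelihood FDR 1.00) became -0.15 without that library. The male one was -0.77 ± 0.751 and became -0.08 without male WT replicate 2. Phgdh, the dehydrogenase of the first step (chr3:98313170-98339990), was at 0.106 and 0.283 CPM in WT males, 0.163 and 0.267 in NT-KO males, 0.256 and 0.338 in WT females and 0.299 and 0.138 in NT-KO females. It rested on 6 to 23 counts a library and reached 1 CPM in 0 libraries, so it was not tested, and its genotypes overlapped in both sexes. In addition 47.78% of its 50-base stretches are shared with Gm7901, Gm9347 or Gm8341, so even these few counts are uncertain.

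Sesn2 encodes a sestrin that restrains mTORC1 signalling and responds to ATF4 and to p53 (chr4:132492032-132510501). Its level was 4.69 and 5.22 CPM in WT males and 11.6 and 7.26 in NT-KO males. In females it was 10.6 and 6.64 CPM in WT and 8.11 and 8.18 in NT-KO. Both male WT libraries lay below all 6 others. The male log2 fold change was 0.93 ± 0.288, or 1.90-fold, with an unadjusted p of 0.0121 and a quasi-likelihood FDR of 0.298, so it did not pass the test. It was 0.55 without male NT-KO replicate 1 and 1.22 when the other NT-KO library was left out. The female log2 fold change was -0.08 ± 0.283 (FDR 1.00).

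Bbc3 encodes PUMA, a BH3-only protein that starts mitochondrial cell death and is induced by p53 and by CHOP (chr7:16308393-16318205). It stood at 2.82 and 2.76 CPM in WT males, 7.06 and 5.24 in NT-KO males, 4.94 and 5.32 in WT females and 5.37 and 6.10 in NT-KO females. The male WT libraries were the lowest of the 8 and close to each other, and the genotypes did not overlap in either sex, although in females both NT-KO libraries were only slightly above both WT libraries. That pattern was shown by 12.2% of all tested genes in females. The male log2 fold change was 1.14 ± 0.215, or 2.20-fold, with an unadjusted p of 0.000675 and a quasi-likelihood FDR of 0.160. The likelihood ratio test gave it an FDR of 0.00609 and called it. Leaving out any 1 library kept the direction, with male log2 fold changes from 0.91 to 1.33. In females the log2 fold change was 0.16 ± 0.209 (FDR 1.00).

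Of the 9 tested genes 3 in males, Atf5, Sesn2 and Bbc3, had both NT-KO libraries above both WT libraries, as did 19.6% of all tested genes, and 0 had both below, as did 19.2%. In females 1 of the 9, Bbc3, had both above, as did 12.2% of all tested genes, and 0 had both below, as did 14.2%.

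Over both sexes together, Bbc3 alone had an unadjusted p under 0.05, with a log2 fold change of 0.65 ± 0.149 (quasi-likelihood FDR 0.636). This count of 1 in 9 stands against 5.42% of all genes at that p, and 0 of the 9 were called, against 0.0152% of all genes. The difference between the sexes in NT-KO vs WT was tested itself. It was 0.98 ± 0.298 for Bbc3 (FDR 0.573) and 1.00 ± 0.404 for Sesn2 (FDR 0.671), both larger in males. Here 2 of 9 had an unadjusted p under 0.05, against 7.20% of all genes, and 0 of 9 passed an FDR of 0.05, against 0.0152%. The male and female responses of these genes were therefore not shown to differ.

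The sexes were also compared over both genotypes. Of the 9 genes 3 had an unadjusted p under 0.05, against 26.9% of all genes, and 0 were called by the quasi-likelihood test, against 4.19%. Asns was higher in males by a log2 difference of 1.99 ± 0.707 (quasi-likelihood FDR 0.121), while Trib3 was lower in males by a log2 difference of -1.18 ± 0.453 (FDR 0.142) and Bbc3 by -0.39 ± 0.149 (FDR 0.143). The likelihood ratio test called Asns, with an FDR of 0.0379, among 5.17% of all genes. Leaving out female NT-KO replicate 1, the female library with high Asns, raised the log2 difference to 3.56. A larger difference follows from leaving out that library, so the larger value adds no support. Asns is also known as a highly expressed gene of the exocrine pancreas. Of 10 markers of pancreatic acinar cells, the elastase genes Cela1 and Cela2a were measured in every library and were higher in all 4 male than in all 4 female libraries: Cela1 stood at 28.0 to 38.6 CPM in males and 13.7 to 20.9 in females, and Cela2a at 0.448 to 0.712 and 0.219 to 0.404. Among the female libraries, the one with high Asns, NT-KO replicate 1, had the highest Cela2a (0.404 CPM) and the lowest Cela1 (13.7 CPM). The other 8 markers were at 0 in all libraries (Cpb1, Prss2, Pnlip, Amy2a5 and Clps) or between 0 and 0.0191 CPM (Cpa1, Ctrb1 and Cel). The part of such cells in the level of Asns was not tested.

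The likeness of gene profiles was measured as the root mean square difference between log2 CPM profiles over the 8 libraries, each scaled to mean 0 and SD 1, so that 0 means the same shape. It is given as a description. Nearest to Bbc3 were Mettl27 (0.118), Ccdc171 (0.212) and Galnt15 (0.221), and nearest to Sesn2 were Id1 (0.208), Arrdc2 (0.236) and Srsf4 (0.259). Nearest to Ddit3 were Rbm48 (0.249), Tspyl2 (0.266) and Saa3 (0.280), and nearest to Asns were Als2cl (0.275), Pcna-ps2 (0.288) and Hnrnpab (0.307). Within the 10 genes the closest pairs were Atf5 with Phgdh (0.446), Sesn2 with Bbc3 (0.511) and Atf4 with Asns (0.626), farther apart than the genes named above, which were picked from a far larger number of candidates.

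The rest of the pathway was looked at through lists of its parts, in which 0 genes were called by the quasi-likelihood test in either sex. Upstream of ATF4, the list of eIF2α kinases, phosphatases and eIF2B subunits (14 tested) had a male median log2 fold change of -0.17, with 9 genes lower and 5 higher. At an unadjusted p under 0.05, 3 were lower and 0 higher: the eIF2B subunit genes Eif2b4 (-0.46 ± 0.169) and Eif2b1 (-0.40 ± 0.152) and the kinase gene of the ER, Eif2ak3 (-0.69 ± 0.278). Without male WT replicate 2 that count was 0. In females the median was 0.07, with 12 higher and 2 lower and 0 at that p, and 8 higher and 6 lower without female WT replicate 2 or without female NT-KO replicate 1.

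Of 7 bZIP and related partner genes of ATF4, 5 were higher and 2 lower in males (median 0.05), and Nfe2l2, which encodes the oxidative stress factor NRF2, had an unadjusted p under 0.05 (0.55 ± 0.192). The split turned with single libraries: all 7 were higher without male WT replicate 2 (median 0.32), and 2 were higher and 5 lower without male NT-KO replicate 1 (median -0.37). The count higher at that p was 0 without male WT replicate 1 or without male NT-KO replicate 2. In females 3 were higher and 4 lower (median -0.05), and Atf3, a stress-induced bZIP factor, reached that p at 0.93 ± 0.366 (quasi-likelihood FDR 1.00), where 0 genes of the list did without female WT replicate 1, female WT replicate 2 or female NT-KO replicate 1.

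Amino acid supply was covered by several lists. The 8 tested genes of serine, glycine and one-carbon synthesis had a male median of 0.02, and 2 of them were lower at an unadjusted p under 0.05: Mthfd2, a mitochondrial folate enzyme and ATF4 target (2.42 and 2.62 CPM in WT males against 1.30 and 1.16 in NT-KO males, -1.03 ± 0.288, quasi-likelihood FDR 0.268), and Mthfd1l (-0.69 ± 0.293). In females Mthfd2 was at 0.841 and 0.588 CPM in WT and 0.632 and 0.627 in NT-KO, and the list median was 0.09. Without male NT-KO replicate 2 the male median was -0.24, with 2 genes higher and 6 lower. The 11 tested genes of other amino acid synthesis had medians of 0.07 in males and 0.00 in females, with 1 gene lower in males at that p, Pycrl of proline synthesis (-0.49 ± 0.139). The 9 tested amino acid transporters had medians of 0.07 and 0.05, with 1 higher in males, the cationic amino acid transporter Slc7a2 (255 and 189 CPM in WT males against 383 and 413 in NT-KO males, 0.84 ± 0.237). Without male WT replicate 2 the transporters had 0 higher and 1 lower at that p, and their male median ran from -0.22 without male NT-KO replicate 1 to 0.39 without male WT replicate 1.

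The cytosolic aminoacyl-tRNA synthetases, which charge tRNAs and include many ATF4 targets, were mostly lower in males. Of 20 tested, 18 were lower and 2 higher in NT-KO males, with a median log2 fold change of -0.25, and 4 were lower at an unadjusted p under 0.05. Wars, the tryptophan enzyme, was at 17.4 and 28.7 CPM in WT males and 11.8 and 13.2 in NT-KO males (-0.89 ± 0.239, quasi-likelihood FDR 0.255), and Qars (-0.48 ± 0.151) and Hars (-0.35 ± 0.150) followed. Without male WT replicate 2 the split was 18 lower and 2 higher, with a median of -0.18 and 1 gene at that p. Without male NT-KO replicate 1 it was again 18 and 2, with 1 gene at that p, and without male NT-KO replicate 2 it was 15 lower and 5 higher, with a median of -0.37 and 7 genes at that p. In females 12 were higher and 8 lower, with a median of 0.03.

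Among 9 tested further ATF4 targets, 7 were higher and 2 lower in males (median 0.24) and 2 were higher and 7 lower in females (median -0.09). With 1 male library left out the male split ran from 9 higher and 0 lower without WT replicate 2 to 5 and 4 without NT-KO replicate 2, and the median from 0.08 without NT-KO replicate 1 to 0.45 without NT-KO replicate 2. The stress hormone gene Gdf15 stood at 0.371 and 1.25 CPM in WT males, 3.80 and 2.48 in NT-KO males, 1.94 and 3.23 in WT females and 2.97 and 3.46 in NT-KO females. The liver hormone gene Fgf21 stood at 0.318 and 0.236 CPM in WT males, 1.46 and 0.515 in NT-KO males, 1.12 and 1.35 in WT females and 0.544 and 0.810 in NT-KO females. For both genes the male WT libraries were again below the 6 others, and how many of all tested genes show this was not counted. The male log2 fold changes were 1.98 ± 0.532 for Gdf15 (quasi-likelihood FDR 0.253, likelihood ratio FDR 0.0263) and 1.81 ± 0.553 for Fgf21 (FDR 0.293 and 0.0722).

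Of 15 tested p53 and cell death genes, a list set beside Bbc3 and Sesn2, 8 were higher and 7 lower in each sex, with medians of 0.09 in males and 0.10 in females. In males 2 were higher and 2 lower at an unadjusted p under 0.05, and the count lower was 0 without male NT-KO replicate 1 and 4 when the other NT-KO library was left out. Leaving out 1 library took the female median down to -0.09, without female WT replicate 2. Trp53inp1, a p53 target that promotes autophagy and cell death, stood at 23.7 and 26.3 CPM in WT males, 47.1 and 55.0 in NT-KO males, 32.8 and 34.2 in WT females and 28.4 and 35.5 in NT-KO females (male 1.03 ± 0.168, quasi-likelihood FDR 0.157, likelihood ratio FDR 0.000552). Bcl2l11, a BH3-only gene like Bbc3, was higher in males by 0.80 ± 0.283 on the log2 scale, and the death receptor gene Fas lower, at -0.61 ± 0.230.

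**Figure D3:**
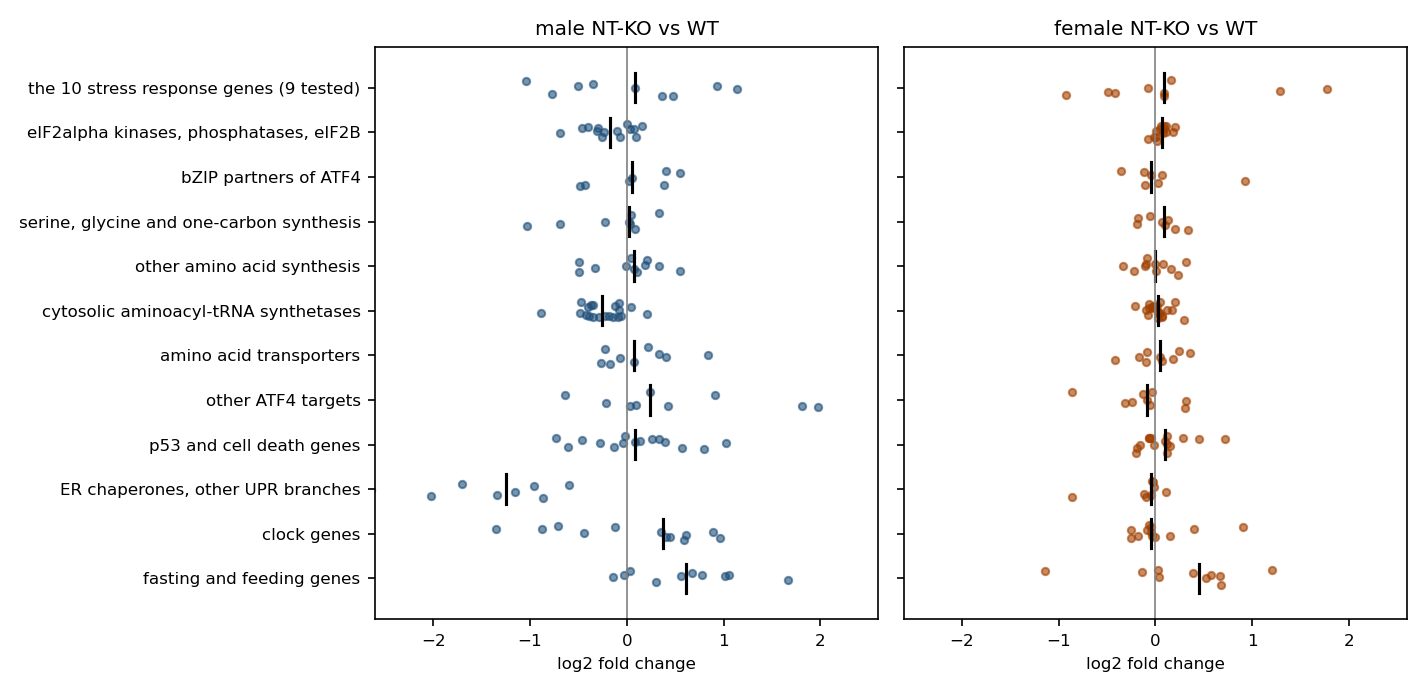
Log2 fold change of NT-KO against WT (horizontal axis) in males (left) and females (right) for the 9 tested genes and the tested genes of 11 further lists. Points are genes, offset vertically so that they can be seen, and black bars are list medians. In males the list of ER chaperones and related genes lies lowest (median -1.25) and 18 of 20 tRNA synthetases lie below 0. The female medians stay near 0 except that of the fasting and feeding genes (0.46).

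The other branches of the ER stress response, which do not run through ATF4, differed most between the male genotypes. All 8 tested genes listed for these branches were lower in NT-KO males and had an unadjusted p under 0.05, with a median of -1.25. They were ER chaperone and folding genes, the transcription factor gene Xbp1 and the degradation gene Edem1. Hspa5 was at 898 and 2590 CPM in WT males, 336 and 521 in NT-KO males and 402 to 538 in the female libraries (male -2.02 ± 0.465, quasi-likelihood FDR 0.210, likelihood ratio FDR 0.00490). Without male WT replicate 2 the median was -0.70 and 5 of the 8 had that p, where 3.64% of all genes did. Without male NT-KO replicate 1 the median was -1.09, again with 5 of the 8 at that p. In females the median was -0.04. Pdia4 and Dnajc3 had male log2 fold changes of -1.70 ± 0.405 and -0.96 ± 0.232.

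Clock genes and feeding genes were listed because levels of stress genes in liver follow the time of day and the last meal, and the labels give neither. Of 12 tested clock genes 4 were higher and 3 lower in NT-KO males at an unadjusted p under 0.05 (median 0.38), and 0 in females (median -0.05). Leaving out male WT replicate 1 gave a male median of 0.18, and leaving out male NT-KO replicate 1 gave 0.17, each with 2 genes higher at that p. Per3 was at 44.9 and 44.7 CPM in WT males, 68.6 and 68.3 in NT-KO males and 95.7 to 99.7 in the female libraries, with a male log2 fold change of 0.61 ± 0.135. Dbp was at 28.4 and 30.8 CPM in WT males and 64.8 and 50.3 in NT-KO males, and Cry1 at 17.3 and 18.0 against 9.36 and 9.83. Of 10 fasting and feeding genes 8 were higher and 2 lower in each sex, with medians of 0.62 in males and 0.46 in females, and 3 were higher in males at that p: G6pc (1.01 ± 0.371), Sds (0.67 ± 0.273) and Srebf1 (0.78 ± 0.327). Single libraries carried these values. Without male NT-KO replicate 2 the male split was 5 and 5, with a median of 0.14 and 0 genes at that p, and without male WT replicate 2 that count was 0 too. Without female NT-KO replicate 1 the female median was -0.11, with 4 higher and 6 lower. The part of the clock and feeding genes in the levels of Bbc3 and Sesn2 was not tested.

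**Figure D4:**
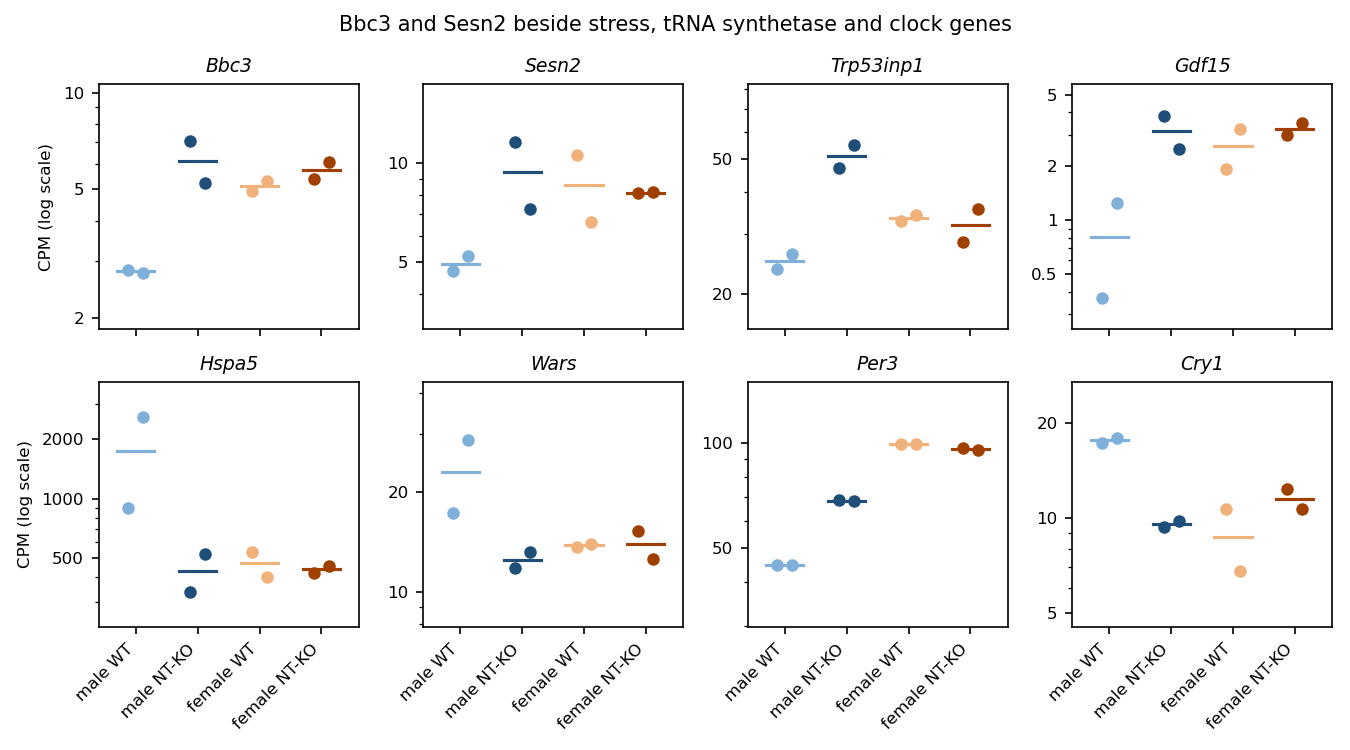
Levels of Bbc3 and Sesn2 beside Trp53inp1, Gdf15, Hspa5, Wars, Per3 and Cry1 in each library, as CPM on a log scale, with group means as bars. The male WT libraries are the lowest of the 8 for Bbc3, Sesn2, Trp53inp1, Gdf15 and Per3 and the highest for Hspa5, Wars and Cry1. The genes beside Bbc3 and Sesn2 were picked after their values were seen, and the share of all tested genes with either pattern was not counted.

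Of the other cell types, 6 macrophage, 5 endothelial and 5 stellate cell markers had male medians between 0.24 and 0.29 and female medians between -0.07 and 0.06, and 5 bile duct markers medians of 0.23 and -0.01. At an unadjusted p under 0.05, the endothelial marker Lyve1 was lower in males (-0.72 ± 0.236) and in females (-0.64 ± 0.232). The bile duct marker Spp1 was lower at that p in males (-0.74 ± 0.278). The blood markers had a male median of -1.07, with 2 of 5 lower at an unadjusted p under 0.05, and a female median of 0.43. The 4 tested lymphocyte markers had a male median of 1.17 and a female median of -0.84, with 1 higher in males (Ighm) and 1 lower in females (Cd79a) at that p. All 4 adipocyte markers were too low to be tested. The part of these cells in the levels of the 10 genes was not tested.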

How the data were processed

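RNA was extracted from flash-frozen livers with Trizol and sequenced from Illumina TruSeq libraries. The deposited values are raw counts of reads per gene, which the authors made by trimming with cutadapt, alignment to GRCm38 with STAR (version 2.6.1a in the submitters' processing notes) and counting over Ensembl genes with featureCounts. Whether strand was used, and how reads matching several genes were counted, is not given in the sources used here. Samples were grouped by the genotype and sex in their titles, and 0 columns were left unused.

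Of the 49671 identifiers 49412 matched the GRCm38 gene annotation used for names, positions and exon lengths, and 19172 had a count in 0 libraries. One symbol of the 7 hepatocyte markers was not matched. rRNA, miRNA and mitochondrial genes and genes under 1 CPM in more than 6 libraries were left out, which left 13117. CPM are counts divided by the library total and its TMM factor. All 8 libraries entered one quasi-likelihood fit, with 4 group means, in edgeR 4.0.16 under R 4.3.3. The common biological coefficient of variation was 0.217. A standard error is the size of the log2 fold change divided by the square root of F. Profiles used log2 CPM with a prior count of 2. For the difference between the sexes a call needed the FDR alone. The test was first tried on simulated data. In every group the replicates differed by more than sampling noise.

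The 10 genes, the companion lists and the tests were chosen with earlier results of these data known. From each pathway list at most 3 genes are named with values, those with the smallest unadjusted p over both sexes. Xbp1 and Edem1 are named only to describe what the list of ER stress genes holds. Ighm, Cd79a, Lyve1, Spp1 and the pancreatic acinar markers were named after their values were seen. Of the acinar markers all but Cela1 were too low to be tested. The genes beside Bbc3 and Sesn2 in the plot of the male WT pattern were picked after their values were seen. The share of all tested genes with both male WT libraries below or above all others was not counted. The alternatives were the likelihood ratio test, DESeq2 1.42.0, RLE factors, library size only, 2 other filters, a replicate block, 1 sex alone, no minimum fold change and each library left out in turn. After seeing the data, the medians of the companion lists were added to all of these. The sequence shared with other genes was measured over stretches of 50 bases of the annotated transcripts. Promoter windows are from RefSeq on GRCm38.p6.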

Additional observations from a re-analysis of the deposited data

How the results depend on the processing

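The count of the 9 tested genes that were called changed with the test and the filter. In males it was 1 with the likelihood ratio test and 1 with DESeq2, both times Bbc3, where 1.56% and 1.66% of all genes were called. With no filter beyond 1 count, the quasi-likelihood test called 2 in males (Bbc3 and Ddit3), 1 in females (Asns) and, for the difference between the sexes, 3 (Ddit3, Asns and Psat1). That fit took in 29724 genes. It called 667 of them (2.24%) in males, against 2 with the filter, and 172 (0.579%) in females. For the difference between the sexes it called 552 (1.86%). For male vs female the count was 1 with the likelihood ratio test (Asns), and 2 each with DESeq2 and without the filter (Trib3 and Asns). Over all genes the shares called there were 5.17%, 5.00% and 4.18%, in that order. Leaving out 1 library changed the count for male vs female alone, where Asns was called without female NT-KO replicate 1, the female library with high Asns. With a replicate block the counts were 0 in all 5 comparisons and the medians 0.07 in males and 0.08 in females. The labels do not say whether the replicate numbers pair the samples. Deviations of same-numbered libraries correlated at -0.181 to 0.209. Each group gives only 1 such deviation, so these values cannot exclude a shared litter or day.

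The male median of the 9 genes was -0.22 to 0.58 with 1 library left out, the lowest without male NT-KO replicate 1 and the highest without male WT replicate 2. Leaving out 1 library also turned the direction of single genes that had not passed the test. In males the log2 fold changes then ran from -0.16 to 0.29 for Atf4, -1.67 to 0.09 for Ddit3, -0.22 to 0.95 for Trib3, -0.93 to 0.58 for Asns and -2.17 to 0.57 for Chac1. In females they ran from -0.03 to 0.20 for Atf4, -1.03 to 0.00 for Atf5, -0.07 to 0.28 for Ddit3, -1.29 to 0.50 for Trib3, -1.36 to 2.70 for Asns, -0.15 to 2.00 for Psat1 and -0.38 to 0.30 for Sesn2. In males Bbc3 (0.91 to 1.33), Sesn2 (0.55 to 1.22), Atf5 (0.07 to 0.72) and Psat1 (-1.52 to -0.08) kept their direction under all 16 alternatives. In females Bbc3 and Chac1 did so, and a stable direction was not particular to Bbc3 and Sesn2 in males. The male FDR of Bbc3 was 0.00341 with no filter beyond 1 count and 0.411 with 1 sex alone. That of Sesn2 was 0.298 in the main fit and 0.0134 with no filter beyond 1 count. Counts were few for Phgdh (6 to 23 a library), for Psat1 (19 to 97) and for Asns in females (7 to 104).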

Other observations

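Phgdh, which was too low for the test, was compared only in the fit with no filter beyond 1 count. Its log2 fold change there was 0.19 ± 0.646 in males and -0.47 ± 0.596 in females, both with a quasi-likelihood FDR of 1.00, and its log2 difference of males from females was -0.34 ± 0.440 (FDR 0.866).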
